A study of Mus musculus with 82 samples.

Results

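The keratin genes were followed across 82 untreated mouse mammary tumours of 13 models. A gene was taken as a keratin where its symbol was Krt followed by a number and at most 1 letter, which left out the keratin-associated proteins, and 51 of the 47480 genes in the deposited count table met this rule. Of BALB/c mice there were 9 models and 64 libraries: 12 of 2208, 11 of 2250, 10 of 2225, 7 each of 2153 and 9263, 5 each of 2336 and 4T1, 4 of 2224 and 3 of T12. Of FVB mice there were 15 libraries, 8 of MMTV-NEU, 5 of MMTV-PYMT and 2 of KPB1-A, and of C57BL/6 mice the 3 libraries of E0771, so strain and model cannot be told apart. In MMTV-NEU and MMTV-PYMT, as their names say, an oncogene (Neu or the polyoma middle T antigen) is driven by the long terminal repeat of mouse mammary tumour virus, whereas 4T1 and E0771 are transplantable mammary cancer cell lines. The labels give no further genotype for the remaining models, which are known by codes, and no model was a control.

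Keratins are the intermediate filament proteins of epithelial cells. A filament is built from a type I (acidic) and a type II (basic) chain, and chains are paired by cell type: Krt8 with Krt18 in simple epithelia such as the luminal cells of the mammary duct, Krt5 with Krt14 in basal and myoepithelial cells, Krt1 with Krt10 in the upper epidermis, and separate sets in the inner root sheath and the shaft of the hair. Because of this pairing the keratins are widely used to tell luminal from basal mammary tumours.

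The genes lay in 2 clusters. Of the type I genes, 27 were on chromosome 11, and Krt18 alone was on chromosome 15 among the 23 type II genes, next to Krt8 (mm10 coordinates of the GENCODE M21 annotation, Krt8 at chr15:101996698-102004482 and Krt18 at chr15:102028180-102032027). By role, 6 were keratins of simple epithelia, 3 of basal cells, 4 of stressed or activated epithelium, 5 of the upper epidermis, 6 of mucosa and cornea, 9 of the inner root sheath and companion layer, 15 of hair and nail, and 3 fell outside these groups.

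The shallowest library had 14.4 M counts, the median library 58.2 M and the deepest 132.7 M. Levels are given as CPM, the counts per 1 M counts scaled by TMM factors, and as CPM per kilobase of exon where different genes are compared. In 11 models the summed level of 6 epithelial markers (Epcam, Cdh1, Cldn3, Cldn4, Cldn7 and Esrp1) averaged between 938 CPM (4T1) and 2911 CPM (MMTV-NEU). It was 6.83 ± 1.31 CPM in T12 and 4.50 ± 4.46 CPM in E0771 (SD, n = 3 each), so the markers of an epithelial tumour were close to absent there. Replicate 1 of MMTV-PYMT, replicates 2 and 4 of 2224, replicates 2 and 3 of 9263 and replicate 2 of E0771 stood apart, with hair follicle keratins well above the lowest libraries of their models, and counts of calls in these models are given with and without them. All but that of MMTV-PYMT held at least 0.5 CPM of the melanocyte transcripts Dct, Tyr and Tyrp1, while the longer melanocyte list with Pmel and Mlana summed to model means between 0.392 CPM (T12) and 2.23 CPM (2224). The longer list did not set all of these libraries apart. In MMTV-PYMT it had 1.38 CPM in replicate 1 and 1.33 to 1.66 CPM in the others. In 9263 it had 2.22 and 1.91 CPM in replicates 2 and 3 and up to 1.70 CPM in the others. In 2224 it had 5.32 and 2.15 CPM in replicates 2 and 4, against 0.606 and 0.825 CPM. In E0771 it had 2.25 CPM in replicate 2, against 0.137 and 0.343 CPM. Skeletal muscle markers varied widely, with model means between 0.792 CPM (T12) and 1550 CPM (E0771). In bulk tumours such as these, fewer cells of a type and less RNA per cell cannot be told apart.

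Of the 51 keratins, 49 had enough counts to be tested, and all 49 differed among the 13 models (edgeR quasi-likelihood F test, Benjamini-Hochberg adjusted p under 0.05). This was also the case for 98.2% of the 22847 genes tested, so the share among keratins was near the background. Krt12 and Krt24, keratins of the cornea and of mucosa, had at most 4 and 7 counts in any library and were not tested. The number of keratins with a mean of at least 1 CPM was 40 in 9263, 38 in MMTV-PYMT and 34 in 2224, and lay between 9 and 26 in the other models apart from T12, where it was 4. In MMTV-PYMT, 2224 and E0771, which had 26, many of these means were lifted by the libraries that stood apart. Krt33b averaged 6.35 CPM in MMTV-PYMT with 4 of 5 libraries at 0, and Krt77 9.13 CPM in E0771 with 2 of 3 at 0. In 2224, Krt6b averaged 32.1 CPM with a median of 0.952 CPM. All libraries of T12 lacked any count for 24 keratins, and all libraries of MMTV-NEU for 18.

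**Figure D1:**
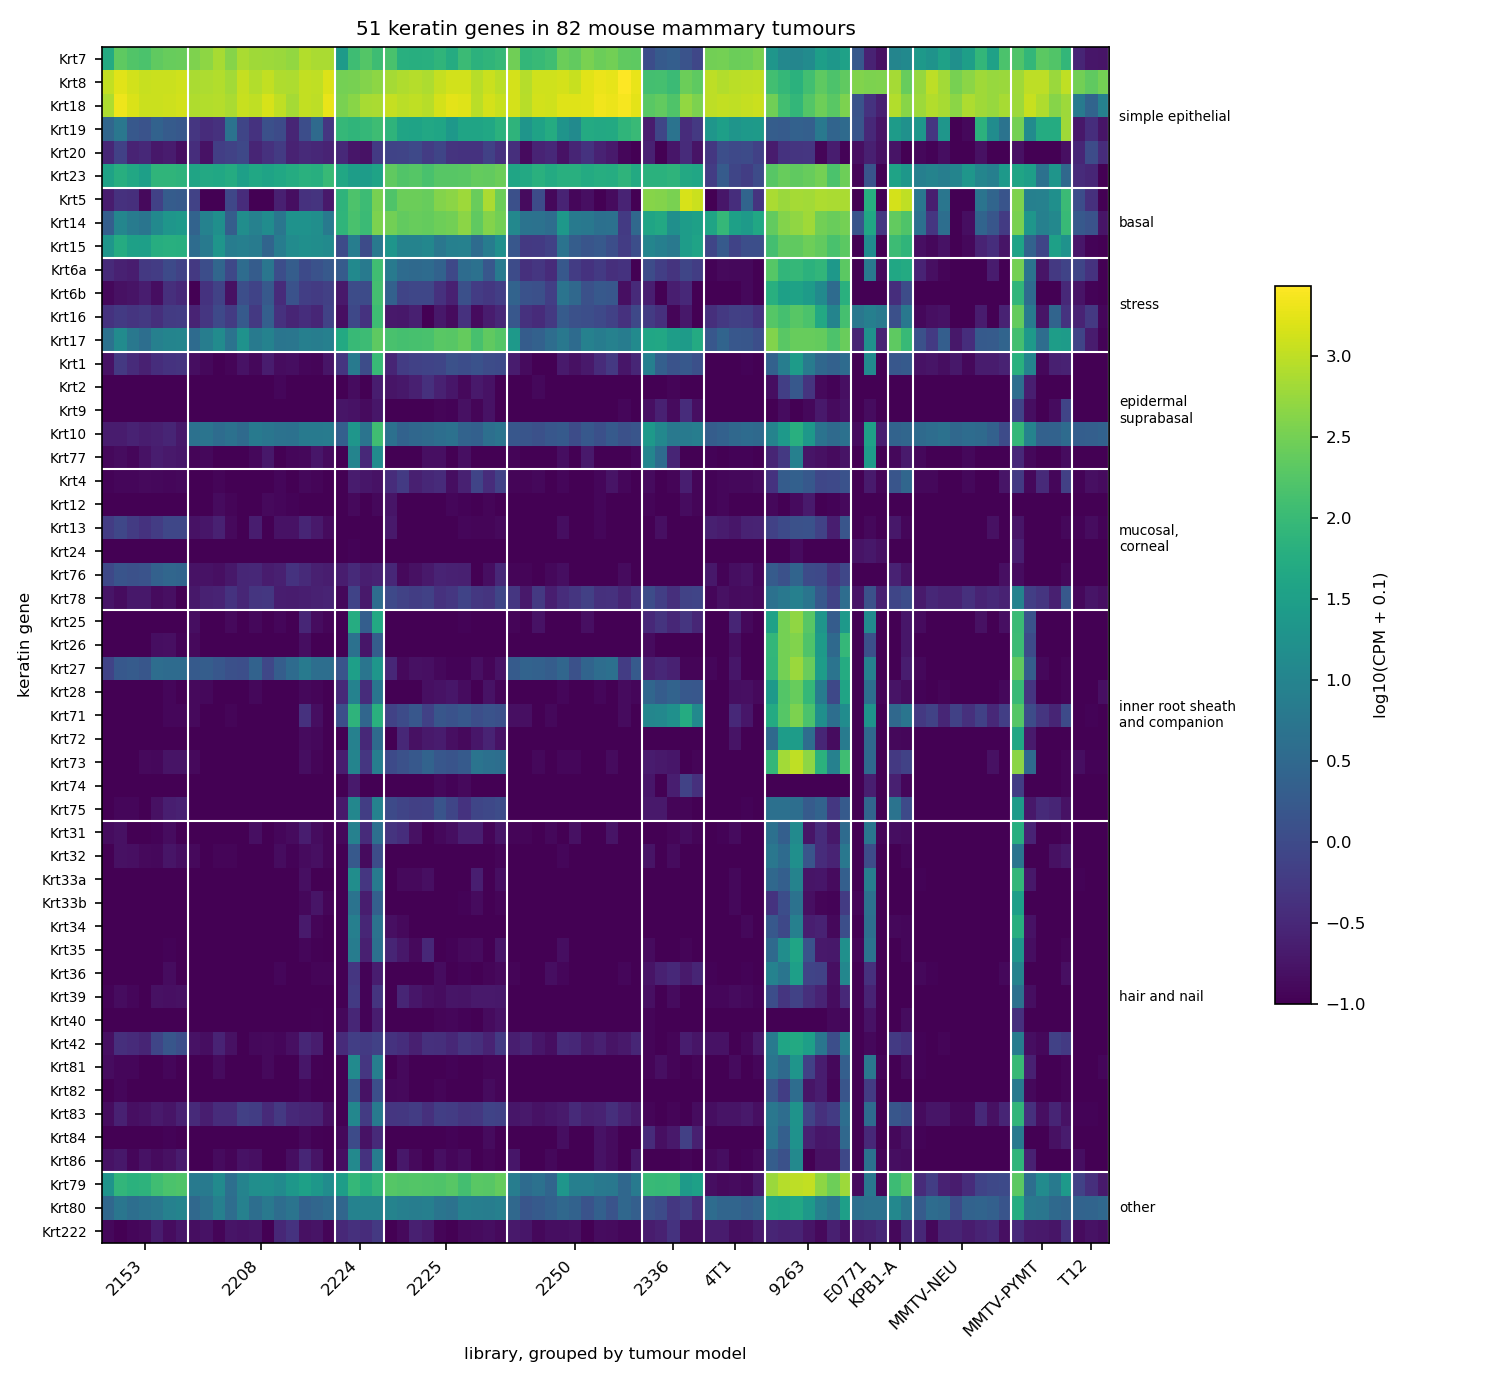
Level of each of the 51 keratin genes (rows, grouped by role) in each of the 82 libraries (columns, grouped by model), as log10 of CPM + 0.1. Krt8 and Krt18 are bright in most models, Krt18 is dim in T12 and E0771, and the inner root sheath and hair keratins are bright in 9263, in replicate 1 of MMTV-PYMT, in replicates 2 and 4 of 2224 and in replicate 2 of E0771.

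Krt8 and Krt18, the filament pair of simple epithelia, were the leading keratins in most models, but they came apart in T12 and E0771. Krt8 had 311, 226 and 323 CPM in the libraries of T12 and 393, 356 and 372 CPM in those of E0771. Krt18 had 6.65, 2.58 and 8.82 CPM in T12 and 1.28, 0.348 and 0.149 CPM in E0771. In the other 11 models Krt18 averaged between 217 CPM (9263) and 1655 CPM (2250), with no library below 86.4 CPM, so neither model overlapped them. Krt8, by contrast, was not the lowest of the 13 models in either: all libraries of E0771 had more Krt8 than any of 9263 (66.5 to 227 CPM), where Krt18 was at 217 ± 100 CPM (SD, n = 7).

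To test a model, its mean log2 level was set against the average over the 12 others, each model weighing the same, with the p-values adjusted over all genes tested (edgeR). Krt18 was lower by this measure in E0771 (log2 difference -9.72 ± 0.59 SE, adjusted p = 1.72e-24) and in T12 (-6.06 ± 0.48, adjusted p = 3.04e-18). Krt8 was lower by far less, with -1.02 ± 0.27 in T12 (adjusted p = 0.00104) and -0.60 ± 0.26 in E0771 (adjusted p = 0.04), and the call in E0771 was lost without any 1 of its own libraries (adjusted p from 0.0873 to 0.133), with differences of -0.64, -0.57 and -0.58. Per kilobase, the ratio of Krt8 to Krt18 had a median of 34.3 in T12 and 750 in E0771. The model means of this ratio lay between 0.433 (2336) and 0.905 (MMTV-PYMT) elsewhere. Krt8 made up 95.1 ± 0.387% of the summed keratin level per kilobase in T12 (SD, n = 3), and 82.3 ± 25.4% in E0771, whose replicate 2 also held skin keratins. The ratio of all type II to all type I keratins per kilobase was accordingly 22.7 ± 1.71 in T12 and 25.7 ± 20.6 in E0771, against model means of 0.523 to 1.42 in the others. The pseudogene Krt8-ps, which resembles Krt8 and could share reads with it, was at 3.16 CPM in T12 and 3.14 CPM in E0771, beside Krt8 means of 287 CPM in T12 and 374 CPM in E0771.

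**Figure D2:**
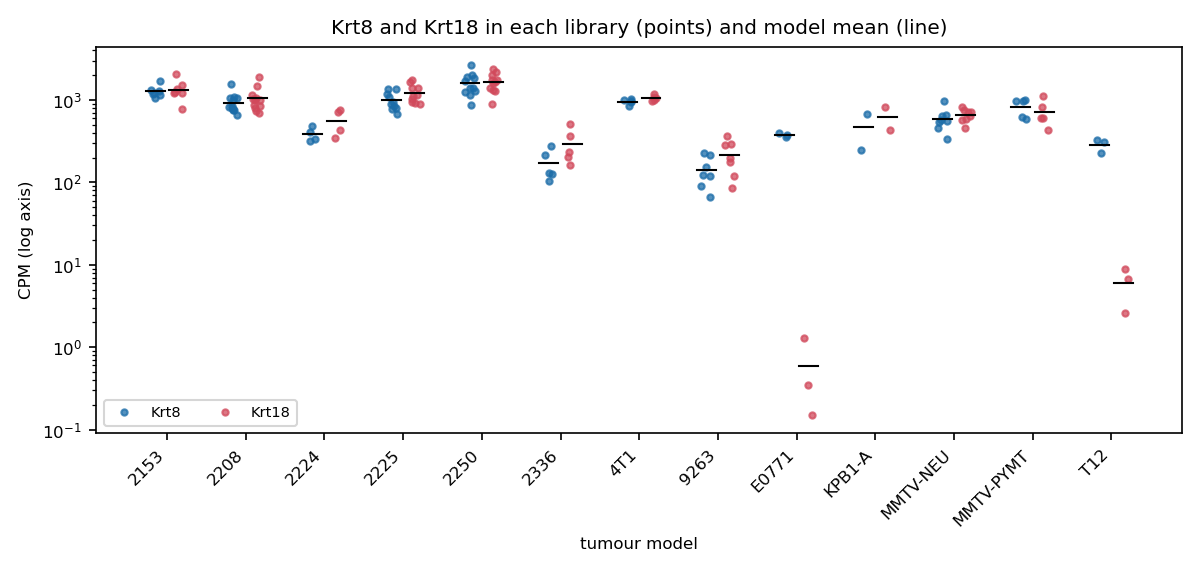
Krt8 (blue, left) and Krt18 (red, right) in CPM on a log axis in every library, by model; points are libraries and black lines are model means. In 11 models the pair lies at like levels, while in E0771 and T12 Krt8 stays above 200 CPM and Krt18 is below 10 CPM.

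The other keratins of simple epithelia were nearly absent from T12 and E0771, and the median log2 difference of the 6 was -6.12 in T12 and -4.84 in E0771, against -0.09 and -0.11 over all genes tested. Krt7, a type II keratin of glandular ducts, averaged 0.119 CPM in T12 and 0.592 CPM in E0771. Krt19, a type I keratin of luminal cells that pairs with Krt8, averaged 0.150 and 0.568 CPM there, and Krt23, a type I keratin of glandular and gut epithelium, 0.151 and 0.452 CPM. In T12, 1 of 49 keratins was called higher (24.4% of all genes were) and 18 were called lower (23.8% of all genes were). Without replicate 2 of E0771, which is part of what T12 is compared with, 10 of 49 were called lower, a smaller share than the 23.8% of all genes with every library in. E0771 then had keratins at 0 throughout, such as Krt5, which edgeR had little power to call lower in T12. DESeq2, with all libraries, called 34 lower. Without the libraries with at least 0.5 CPM of melanocyte transcripts, 9 were called lower (21.8% of all genes). The 1 called higher was Krt20, a keratin of gut and urothelium, at 0.478 ± 0.427 CPM (SD, n = 3; log2 difference 1.83 ± 0.54, adjusted p = 0.0032). Levels of Krt20 were under 1 CPM on average in every model. Vim, the vimentin gene of mesenchymal cells, was at 5095 CPM in E0771 and 3299 CPM in T12, above 2653 CPM in 4T1 and at most 750 CPM in the other models.

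Transcripts of proteins that tie keratin filaments to desmosomes and hemidesmosomes were mixed in these models. Of 11 tested linker genes, 6 were called lower (23.8% of all genes) and 3 higher (24.4%) in T12, and 8 lower (26.9%) and 1 higher (29.4%) in E0771. Dsp, which encodes desmoplakin, was at 0.333 CPM in T12 and 4.72 CPM in E0771, against 91.1 CPM in 4T1, the next lowest model. Plec, which encodes plectin, a linker of both keratin and vimentin filaments, was highest in T12 (854 ± 16.1 CPM) and E0771 (686 ± 136 CPM; SD, n = 3 each).

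Among the remaining models, 2250 and 2153 had the highest simple keratin levels. Krt8 averaged 1599 ± 505 CPM in 2250 (log2 difference 1.67 ± 0.12, adjusted p = 9.87e-21) and 1273 ± 212 CPM in 2153 (1.31 ± 0.15, adjusted p = 2.78e-12). Their ranges overlapped each other and that of the next model, 2225 (674 to 1343 CPM). Krt7 set 2208 apart: its libraries held between 381 and 830 CPM, with a median of 609 CPM, and none of the other models reached 381 CPM. The log2 difference of Krt7 in 2208 was 4.76 ± 0.22 (adjusted p = 4.82e-31). 4T1 followed with 307 ± 30.7 CPM (3.69 ± 0.25, adjusted p = 5.33e-22). At the other end, 2336 had 1.36 ± 0.504 CPM of Krt7 although it had Krt8 and Krt18.

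Krt19 did not follow Krt7. Its highest mean was that of MMTV-PYMT, where the libraries had 322, 13.9, 54.0, 54.0 and 625 CPM. In 2224, with 93.4 ± 14.6 CPM (SD, n = 4), the libraries agreed better. In 2208, which had the most Krt7, Krt19 was only 1.16 ± 1.43 CPM (log2 difference -2.92 ± 0.55, adjusted p = 4.77e-06). Its libraries in 2153 had 1.27 to 5.55 CPM. Krt23 was highest in 9263 (239 ± 54.8 CPM, n = 7) and 2225 (204 ± 38.7 CPM, n = 10), whose ranges overlapped each other and lay above those of all other models.

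In the models with little basal keratin, simple keratins made up almost all of the keratin level per kilobase, with means of 99.3% in MMTV-NEU, 99.2% in 2250, 97.9% in 2208, 97.7% in 4T1 and 96.3% in 2153. In MMTV-NEU 3 of 49 keratins were called higher (34% of all genes), all 3 of them simple keratins, and 13 were called lower (28.4%), among them all 3 basal keratins. Of the 3 called higher, Krt18 and Krt7 turned lower (-0.17 and -0.54, not called) with T12 and E0771 out of the comparison, and Krt19 did (-1.32, not called) in the limma fit of the normalized table. The call of lower Krt5 in 2153, 2208, 2250, 4T1 and MMTV-NEU was lost without replicate 2 of E0771, the only E0771 library with a Krt5 count (adjusted p = 1.0). The fitted differences without it were -3.61, -5.36, -5.34, -3.85 and -1.76 in this order, against -4.71, -6.46, -6.45, -4.95 and -2.86 with it. A compared model at 0 throughout left edgeR little power to call a gene lower, so these lost calls decide nothing about the levels. The mean level of Krt5 was at most 2.49 CPM in each of these 5 models. In 2250 the counts were 7 higher (32.1%), of which 5 were simple keratins, and 12 lower (27.7%), among them all 3 basal keratins. In 2208 they were 9 higher (29.4%), of which 5 were simple keratins, and 8 lower (24.7%). The 4T1 tumours had 6 higher (25.5%) and 9 lower (23.6%), and the 2153 tumours 10 higher (29.4%) and 11 lower (23.6%). In each of these 5 models the share of keratins called by edgeR, in either direction, lay under that of all genes. For lower calls this share decides nothing, because T12 had 24 keratins at 0 throughout, and the same limit on power applied to them. Krt1, among them, had a log2 difference of -3.88 in 2208 with an SE of 254390 and was not called. DESeq2 called more keratins lower, 33 in MMTV-NEU (30.5% of all genes), 26 in 2250 (30.8%), 22 in 4T1 (27.2%), 19 in 2153 (28.3%) and 13 in 2208 (26.8%), and apart from 2208 these shares lay above that of all genes. In 4T1, limma on the normalized table also called 20 lower (24.4%).

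**Figure D3:**
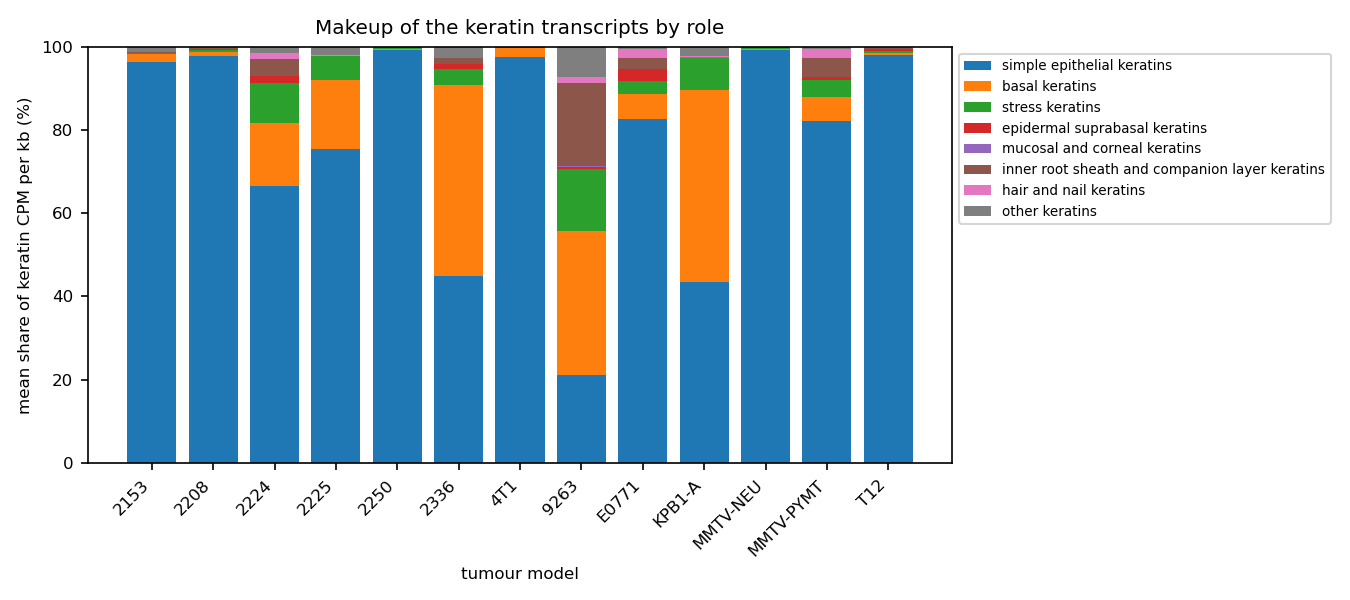
Mean share of each keratin role in the summed keratin level per kilobase (%), by model. Simple keratins fill 96.3% or more of the bar in 2153, 2208, 2250, 4T1, MMTV-NEU and T12, while basal keratins reach 46.3% in KPB1-A, 45.8% in 2336 and 34.4% in 9263.

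Krt5 and Krt14, the pair of basal and myoepithelial cells, marked KPB1-A, 9263, 2225 and 2224, but in unequal proportions. In 2336 only Krt5 was high. In MMTV-PYMT replicate 1 held 374 CPM of Krt5 and 345 CPM of Krt14, while the model medians were 16.2 and 21.5 CPM. Krt5 had 1410 and 1002 CPM in the libraries of KPB1-A (log2 difference 6.82 ± 0.57, adjusted p = 7.37e-17). In 9263 it was steady, between 587 and 774 CPM with a median of 731 CPM (5.97 ± 0.53, adjusted p = 2.61e-16). In 2225 it was between 162 and 739 CPM with a median of 273 CPM (4.98 ± 0.49, adjusted p = 1.35e-14). Krt14 was highest in 9263 (378 ± 142 CPM) and 2225 (300 ± 74.4 CPM), and KPB1-A had 235 and 160 CPM. The 3 models overlapped in Krt14. The median log2 difference of the 3 basal keratins was 4.56 in KPB1-A, 5.77 in 9263 and 3.64 in 2225, against 0.06, 0.05 and 0.02 over all genes tested.

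In 2336, Krt5 was high without Krt14. Krt5 had 426, 399, 352, 1427 and 1185 CPM in the 5 libraries of 2336 (log2 difference 6.09 ± 0.55, adjusted p = 7.06e-16). Krt14 had 39.1, 47.2, 15.7, 28.4 and 33.3 CPM in the same libraries and was not called, with a log2 difference of 0.17 ± 0.56 (adjusted p = 0.855) that turned to -0.41 with T12 and E0771 out of the comparison. Replicates 4 and 5 were the high ones for Krt5 and were not high for Krt14. Their title numbers follow each other and lie apart from those of the other libraries of 2336, and what these numbers stand for is not stated. Per kilobase, the ratio of Krt5 to Krt14 ran between 6.77 and 40.3 in 2336. It was 4.80 and 5.01 in KPB1-A, averaged 1.69 ± 0.665 in 9263, 0.960 ± 0.286 in 2225, 0.802 ± 0.0717 in 2224 and 0.805 ± 0.300 in MMTV-PYMT, and exceeded 5.01 in no library of the other models. The summed level of 6 myoepithelial markers (Acta2, Myh11, Cnn1, Mylk, Oxtr and Tagln) was also highest in 2336, at 3043 ± 757 CPM, with 3959 and 3751 CPM in replicates 4 and 5 and between 2342 and 2710 CPM in the other 3 libraries. 9263 followed with 1026 ± 259 CPM. The part of these cells in the Krt5 level was not tested.

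The opposite imbalance was seen in 4T1. Its libraries had 25.4 to 88.4 CPM of Krt14, with a median of 37.8 CPM, beside 0 to 2.62 CPM of Krt5. The log2 difference of Krt14 in 4T1 was 0.69 ± 0.53 (adjusted p = 0.299), so Krt14 was not called. Without the 5 libraries that held melanocyte transcripts it was (1.15, adjusted p = 0.0387). Krt14 was also present at 11.9 ± 8.42 CPM in 2153 and 10.9 ± 5.90 CPM in 2208, where Krt5 averaged 0.696 and 0.223 CPM.

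**Figure D4:**
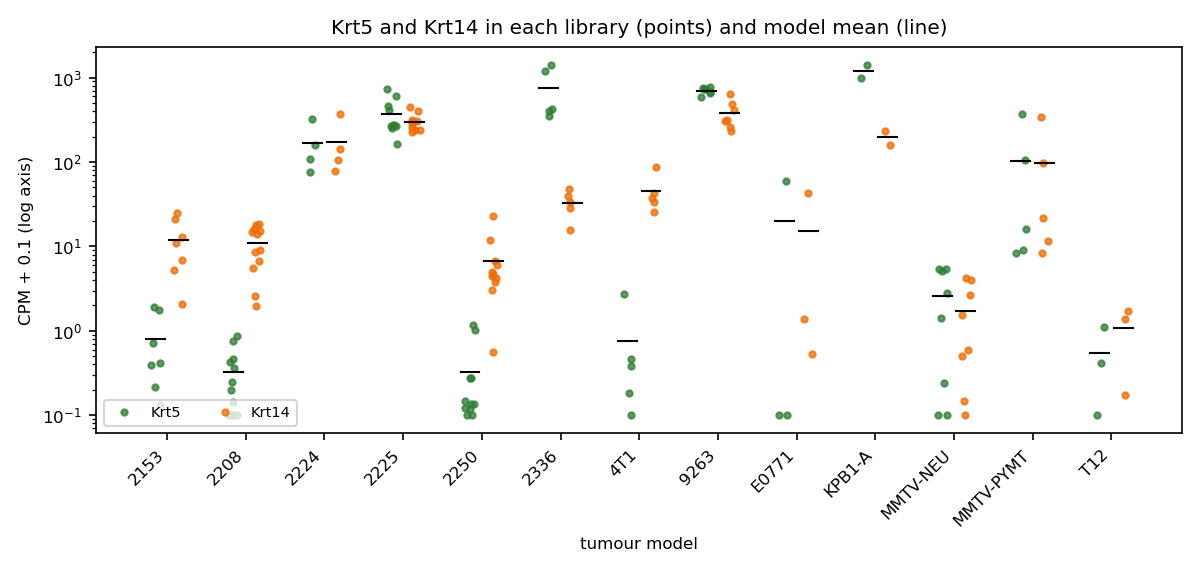
Krt5 (green, left) and Krt14 (orange, right) as CPM + 0.1 on a log axis in every library, by model; points are libraries and black lines are model means. Krt5 lies above Krt14 in all libraries of 2336, 9263 and KPB1-A and below it in all libraries of 2153, 2208 and 4T1.

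Krt15, a type I keratin of basal cells and of the hair follicle bulge, followed another order. Its 9263 libraries (129 to 278 CPM, median 219 CPM) lay above the KPB1-A libraries (110 and 80.0 CPM), which lay above all other models. In 2153, where Krt5 was nearly absent, Krt15 still reached 45.6 ± 16.4 CPM (log2 difference 3.42 ± 0.37, adjusted p = 1.05e-12). MMTV-NEU lay near 0 with 0.0873 ± 0.0955 CPM.

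Krt17, induced in activated and basal epithelium, was high in the models marked by both Krt5 and Krt14. It averaged 250 ± 71.8 CPM in 9263, 172 ± 38.6 CPM in 2225, 154 ± 82.9 CPM in KPB1-A and 118 ± 71.3 CPM in 2224. MMTV-PYMT followed with 42.5 ± 49.1 CPM and a median of 26.9 CPM. The other stress keratins, Krt6a, Krt6b and Krt16, which rise in wounded skin, were more restricted. Krt6a reached 105 ± 65.8 CPM in 9263 and 44.1 and 50.2 CPM in the KPB1-A libraries, whereas 2225 had only 3.54 ± 1.83 CPM. Krt16 had 9.69 to 188 CPM in 9263, with a median of 135 CPM, and 0.115 ± 0.0962 CPM in 2225. In E0771, Krt16 was steady at 5.61, 8.06 and 5.97 CPM, although its partner Krt6a was at 0 or near it in 2 of these libraries.

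In 2225, 21 of 49 keratins were called higher (34.2% of all genes) and 2 lower (26.8%). KPB1-A had 12 higher (24.9%) and 1 lower (14.4%), and 2336 had 14 higher (30.2%) and 6 lower (25.4%). All 6 simple and all 3 basal keratins were among those called higher in 2225. With only 2 libraries, the count in KPB1-A ranged between 9 and 18 calls when single libraries of the series were left out.

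Keratins of the inner root sheath, the cell layers that mould the growing hair, were strongest in 9263. Krt25, Krt26, Krt27 and Krt28 are type I keratins of this sheath, and Krt71, Krt72 and Krt73 their type II partners. Krt75 belongs to the companion layer beside it. Krt74, counted with them, is annotated as a transcribed pseudogene in the mouse, and no library of 9263 had a count of it. Of these 9 genes, 8 were called higher in 9263 (32.5% of all genes), and 8 were without replicates 2 and 3 (31.2%). The promoters of the 6 with a mean above 50 CPM in 9263 are shown because these genes moved together from library to library (RefSeq, GRCm38.p6, the 150 bases before the RefSeq start on the coding strand; capitals mark TATAAA and CAATTA on that strand or in reverse complement).
Krt25 (chr11:99322952-99323101, minus strand): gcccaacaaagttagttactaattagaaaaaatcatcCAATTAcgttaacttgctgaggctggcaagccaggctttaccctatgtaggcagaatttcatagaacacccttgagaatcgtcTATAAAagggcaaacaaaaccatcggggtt
Krt26 (chr11:99337966-99338115, minus strand): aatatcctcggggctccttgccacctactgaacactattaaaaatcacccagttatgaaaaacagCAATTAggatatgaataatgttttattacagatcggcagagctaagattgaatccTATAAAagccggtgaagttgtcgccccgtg
Krt27 (chr11:99351119-99351268, minus strand): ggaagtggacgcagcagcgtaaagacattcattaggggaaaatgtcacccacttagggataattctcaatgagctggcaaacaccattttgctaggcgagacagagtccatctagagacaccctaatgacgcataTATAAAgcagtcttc
Krt28 (chr11:99374904-99375053, minus strand): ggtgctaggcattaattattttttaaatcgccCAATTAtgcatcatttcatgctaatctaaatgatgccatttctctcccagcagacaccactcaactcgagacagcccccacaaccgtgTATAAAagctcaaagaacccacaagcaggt
Krt71 (chr15:101743098-101743247, minus strand): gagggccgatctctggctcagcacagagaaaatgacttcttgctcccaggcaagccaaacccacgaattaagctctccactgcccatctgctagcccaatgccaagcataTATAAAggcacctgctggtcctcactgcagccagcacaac
Krt73 (chr15:101802361-101802510, minus strand): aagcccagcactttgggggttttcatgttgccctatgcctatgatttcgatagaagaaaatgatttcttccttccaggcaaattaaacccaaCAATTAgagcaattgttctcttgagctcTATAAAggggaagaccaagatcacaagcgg

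The TATAAA letters, the core of a TATA box, began at position -30 from the RefSeq start in Krt25, Krt26, Krt28 and Krt73, at -40 in Krt71 and at -15 in Krt27. The CAATTA letters lay at -113 in Krt25, -85 in Krt26, -118 in Krt28 and -58 in Krt73. With both strands searched over the same 150 bases, TATAAA was found in 6 of the 8 inner root sheath and companion layer genes that had a promoter in the table, in 15 of 35 keratins and in 7.57% of all 32851 promoters. CAATTA was found in 4 of these 8 genes, in 6 of 35 keratins and in 4.05% of all promoters. Both strings were chosen after the sequences had been seen, do not overlap each other, and are a description of the letters only.

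In the 7 libraries of 9263, Krt73 had 86.9, 666, 1000, 471, 67.7, 8.77 and 117 CPM. Krt25 had 33.9, 313, 504, 190, 20.6, 1.82 and 24.1 CPM, and Krt27 had 81.7, 317, 578, 260, 27.8, 4.88 and 53.9 CPM. Replicates 3, 2 and 4 were the highest and replicate 6 the lowest for each of these genes, while Krt5 in the same libraries varied little. Replicates 2, 3 and 4 carry consecutive title numbers and had 23.4, 25.4 and 35.4 M counts. Replicates 5, 6 and 7 carry another consecutive run and had 73.3, 116.4 and 98.4 M counts. The labels do not say what the title numbers stand for, and the part of either difference was not tested. The summed level of the 9 genes thus ran between 23.9 CPM in replicate 6 and 3121 CPM in replicate 3. The summed level of 10 cornified layer markers, among them Tchh, the trichohyalin gene of the inner root sheath, ran between 59.2 and 1734 CPM and was highest in replicates 3 and 2. Replicates 2 and 3 also had 1.32 and 1.18 CPM of Dct, Tyr and Tyrp1 together, against 0 to 0.292 CPM in the other 5, of which replicate 4 still had 1326 CPM of inner root sheath keratins. The part of hair follicle cells in these levels was not tested.

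In 9263, 41 of 49 keratins were called higher (32.5% of all genes) and 2 lower (21.9%), and the count of calls stayed between 43 and 45 when single libraries of other models were left out. With its replicates 2 and 3 left out, 40 were called higher (31.2% of all genes) and 1 lower (22.5%). Krt8 in 9263 was called lower with them (-2.11 ± 0.20, adjusted p = 1.67e-15) and without them (-1.89, adjusted p = 4.87e-12). A keratin that set 9263 apart in every library was Krt79, a type II keratin of the hair canal and sebaceous duct, with 288 to 1038 CPM and a median of 615 CPM. The next model, 2225, had at most 238 CPM. The log2 difference of Krt79 in 9263 was 6.13 ± 0.36 (adjusted p = 3.66e-25) and 5.91 without replicates 2 and 3 (adjusted p = 4.39e-23), while 4T1 lay at 0.0471 ± 0.0304 CPM (-8.75 ± 0.96, adjusted p = 1.71e-12). Krt42, a type I keratin of the nail, also had its highest mean in 9263, at 20.2 ± 19.5 CPM, with between 1.07 and 48.3 CPM per library.

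In MMTV-PYMT, the follicle keratins came from 1 library. Replicate 1 held 1262 CPM of the inner root sheath and companion layer keratins and 556 CPM of the hair and nail keratins, against at most 8.79 and 1.12 CPM in the other 4 libraries. Krt73, for example, had 466, 3.12, 0, 0 and 0.0129 CPM, and Krt81, a type II keratin of the hair cortex, 96.5, 0.157, 0, 0 and 0.0129 CPM. The same library held 374 CPM of Krt5, 345 CPM of Krt14, 314 CPM of Krt6a and 2152 CPM of Tchh. Dct, Tyr and Tyrp1 summed to 0.460 CPM there and to at most 0.0775 CPM in the others. MMTV-PYMT had 43 of 49 keratins called higher (31% of all genes) and 1 lower (20.5%), but without replicate 1 only 14 were called higher and 1 lower. Those 14 of 49 are a smaller share than the 31% of all genes called higher with every library in, so no excess of higher calls was left. The part of follicle or skin in this library was not tested.

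In 2224, 43 of 49 keratins were called higher (24% of all genes) and 2 lower (14.8%). With replicates 2 and 4 left out there were 12 calls, all higher (14.7% of all genes), whereas leaving out either of them alone gave 40 or 41. Inner root sheath and companion layer keratins summed to 2.83, 209, 11.6 and 160 CPM in replicates 1 to 4, and hair and nail keratins to 0.379, 85.4, 3.02 and 46.4 CPM. Keratins of the upper epidermis and of stressed epithelium were highest in replicate 4 but not confined to it. Those of the upper epidermis summed to 2.53, 37.9, 6.27 and 229 CPM in replicates 1 to 4. The stress keratins summed to 50.4, 110, 117 and 576 CPM. Krt1 had 0.379, 6.45, 0.973 and 97.0 CPM, and Krt16 0.0505, 0.820, 0.345 and 114 CPM. Krt6b likewise had 0.101, 0.956, 0.949 and 126 CPM, and its call in 2224 was lost without replicate 4 (edgeR adjusted p = 0.0902). Cornified layer markers summed to 150 and 240 CPM in replicates 2 and 4, against 4.14 and 22.0 CPM in replicates 1 and 3. Krt5 and Krt14 were present in all 4 libraries, at no less than 76.9 and 78.4 CPM.

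E0771, whose tumours had almost no epithelial transcripts, showed most skin and follicle keratins in replicate 2 alone, apart from Krt16, which all 3 libraries held. Krt5 had 0, 59.8 and 0 CPM in its 3 libraries, Krt14 1.30, 43.1 and 0.433 CPM, and Krt25 0, 13.2 and 0 CPM. Krt77, a type II keratin of the sweat gland duct and embryonic epidermis, had 0, 27.4 and 0 CPM. Replicate 2 also had 74.1 CPM of cornified layer markers, against 5.96 and 6.38 CPM, and 1.35 CPM of Dct, Tyr and Tyrp1, against 0 in both others. With this library included, 24 keratins were called higher in E0771 (29.4% of all genes) and 6 lower (26.9%). Without it there were 15 calls, of which 1 was higher (25.1% of all genes) and 14 were lower (23%). Krt77 and Krt33a then stood at 0 in both remaining libraries. Without the libraries with at least 0.5 CPM of melanocyte transcripts, 1 was called higher (25.3% of all genes) and 14 lower (23.1%). The part of skin in replicate 2 was not tested.

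**Figure D5:**
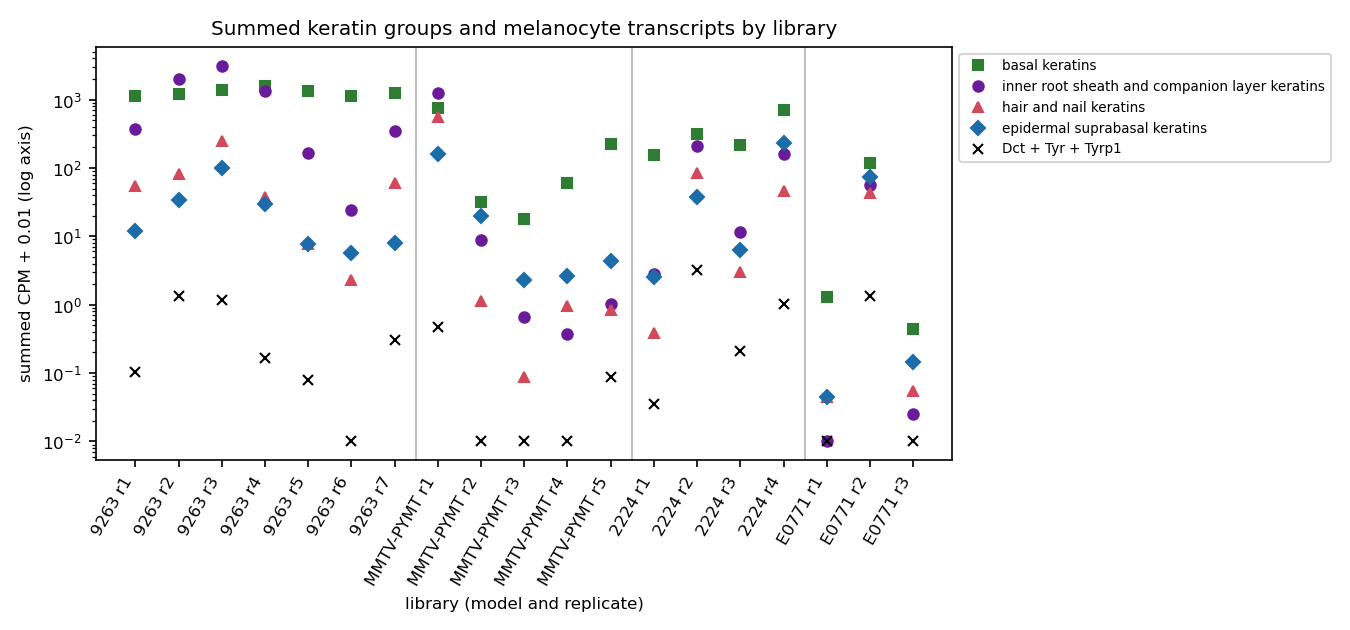
Summed levels (CPM + 0.01, log axis) of basal, inner root sheath and companion layer, hair and nail, and epidermal suprabasal keratins and of Dct, Tyr and Tyrp1 in each library of 9263, MMTV-PYMT, 2224 and E0771. In MMTV-PYMT replicate 1, 2224 replicates 2 and 4 and E0771 replicate 2, follicle keratins and melanocyte transcripts are both above the lowest libraries of the model, while in 9263 the inner root sheath and companion layer keratins range between 23.9 and 3121 CPM and the hair and nail keratins between 2.28 and 246 CPM.

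The 15 hair and nail keratins, most of which form the hard shaft, behaved much like those of the sheath but at lower levels. All 15 were called higher in 2224 (24% of all genes) and in MMTV-PYMT (31%), 14 in 9263 (32.5%) and 11 in E0771 (29.4%), and at most 3 in any other model. None of the 14 that could be tested was called higher in 2224 without its replicates 2 and 4, 1 of 14 was in MMTV-PYMT without replicate 1, and none of the 15 was in E0771 without replicate 2. In 9263 without replicates 2 and 3 there were still 14 (31.2% of all genes). There, replicates 1, 4 and 7 stayed in and held 54.1, 37.3 and 59.5 CPM of these keratins, so the 2 cases are not alike. In 9263 their sum ran between 2.28 and 246 CPM, again with replicate 6 lowest and replicate 3 highest. Sheath keratins exceeded hair and nail keratins in all 7 libraries of 9263, and in replicate 1 of MMTV-PYMT, replicates 2 and 4 of 2224 and replicate 2 of E0771. Krt33a, Krt33b, Krt81 and Krt86 are near-identical copies of neighbouring hair keratins, so reads may have been divided among them and their single values are uncertain.

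Some sheath keratins were found without most of the rest of their set. Krt27 was at 2.49 ± 1.62 CPM in 2208, 2.30 ± 1.09 CPM in 2250 and 2.30 ± 1.22 CPM in 2153, whereas Krt25, Krt26 and Krt28 all averaged under 0.05 CPM in these models. No count of Krt27 was found in T12, which allows up to 0.0118 CPM (3 counts over the summed depth of its 3 libraries, counting error only). Krt71 was at 10.8, 11.8, 16.7, 52.9 and 12.4 CPM in 2336 (log2 difference 4.97 ± 0.60, adjusted p = 4.83e-11), where Krt25, Krt26 and Krt27 averaged under 0.3 CPM. Krt28 was present there too, at 2.02 ± 0.550 CPM, with 1.49 to 2.75 CPM per library. All 5 libraries of 2336 had more Krt71 than any library of 2153, 2208, 2225, 2250, 4T1, KPB1-A, MMTV-NEU and T12. Krt73 was called higher in 2225 as well, at 2.37 ± 1.47 CPM.

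The keratins of the upper epidermis were low in most tumours. Krt10, the type I partner of Krt1, was between 1.37 and 5.11 CPM on average in 7 models and lay at 0.135 ± 0.0321 CPM in 2153 (log2 difference -5.46 ± 0.75, adjusted p = 2.96e-09), where none of the libraries overlapped those of another model apart from E0771. Krt77 in 2336 had 10.2, 3.40, 0.188, 0 and 0 CPM, so replicates 1 and 2 were the high ones, and both were among the 3 libraries with less Krt5. Mucosal keratins stayed low throughout: Krt4, a type II keratin of oesophagus and tongue, had its highest mean in KPB1-A (1.40 and 2.81 CPM), and its partner Krt13 in 9263 (0.867 ± 0.426 CPM) and 2153 (0.598 ± 0.175 CPM). Krt76, a type II keratin of the palate, was called higher in 2153 (1.74 ± 0.787 CPM) and 9263 (1.20 ± 0.738 CPM), with every other model mean at most 0.164 CPM.

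Krt80, a type II keratin of many differentiating epithelia, was found in all models. It averaged 27.5 ± 15.4 CPM in 9263 and between 2.14 and 14.7 CPM in the other models apart from 2336, where all 5 libraries were between 0.272 and 1.17 CPM. It was present in T12 (2.69 ± 0.285 CPM) and E0771 (4.36 ± 0.318 CPM), where most other keratins were near 0. Krt222, a keratin-like gene without a known filament role, stayed under 0.5 CPM in every library. The 9 remaining tested keratins, Krt2, Krt9, Krt32, Krt39, Krt40, Krt74, Krt78, Krt82 and Krt84, had model means of at most 4.63 CPM.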

How the data were processed

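Per the labels' protocols, RNA came off RNeasy Mini columns from cryopreserved tumours and was made into TruSeq mRNA libraries. The submitters' processing notes name STAR, SAMtools, Picard and Salmon, without versions, and mm10. The authors deposited expected counts (estimated counts per gene) and a normalized signal that, by its values, divides each count by the upper quartile of a library's non-zero counts and shows 1 where the count is 0. Strand use in counting is not given in the sources used here. Whether a model's libraries stem from different animals is not stated, so the p-values reflect variation between libraries that may be technical.

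The counts were rounded and analysed with edgeR 4.0.16 under R 4.3.3. Genes passing filterByExpr (count 10, total 15; 22847 genes) were scaled by TMM and fitted with a robust quasi-likelihood model holding a mean for each model, with 69 residual degrees of freedom. Tests were an F test over the models and the contrast of each model with the equally weighted average of the 12 others. The 13 contrasts share libraries. P-values were adjusted over all genes (Benjamini-Hochberg, threshold 0.05), and the SE is the absolute log2 difference over the square root of F. Fitted differences of genes at 0 throughout a model depend on the prior count, so levels are given. Where a compared model was at 0 throughout, the contrast had little power to call a gene lower, which limits all counts of lower calls by edgeR. Exon lengths are unions of GENCODE M21 exons. The tests were checked on simulated data. Alternatives were RLE scaling, no filter, DESeq2 1.42.0, limma 3.58.1 on the deposited normalized signal (log2), other sets of models to compare with, and single libraries of some models left out. Leaving out libraries with melanocyte transcripts, or together replicates 2 and 4 of 2224 or 2 and 3 of 9263, was chosen after seeing the data. Members and lists were chosen with earlier results of these data known. Named keratins were a list chosen by role (20), those with a model mean of at least 5 CPM (19) and those among the 3 largest called differences each way in a model (1 more). Krt8-ps, the 9 keratins named last and Krt12 and Krt24 were named after their values were seen, as were the models singled out for each gene. Promoters were found for 35 of 51 keratins.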

Additional observations from a re-analysis of the deposited data

Results flagged for a closer look

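Within models of 4 to 10 libraries, 88 groups of values (the summed level of each keratin role, and Krt8, Krt18, Krt5 and Krt14) were searched for a single library far from the rest, where the gap to the nearest library exceeded the 95% critical value of Dixon's test. There were 19 such values, all of them the highest library of their group. The 1 in 20 rate of the test assumes independent, normally distributed values, which was not checked for these CPM values. The groups also overlap, since Krt5 and Krt14 are part of the basal sum and Krt8 and Krt18 of the simple sum. The number expected by chance is therefore not known.

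MMTV-PYMT replicate 1 gave 9 of them. It held 756 CPM of basal keratins (17.9 to 222 CPM in the other 4 libraries), 768 CPM of stress keratins (3.94 to 39.6), 159 CPM of epidermal suprabasal keratins (2.30 to 19.7) and 10.3 CPM of mucosal and corneal keratins (0.163 to 2.22). It also held 1262 CPM of inner root sheath and companion layer keratins (0.367 to 8.79), 556 CPM of hair and nail keratins (0.0783 to 1.12) and 260 CPM of other keratins (9.69 to 27.5). Krt5 stood at 374 CPM (8.25 to 107) and Krt14 at 345 CPM (8.30 to 97.5).

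In 2224, replicate 4 held 576 CPM of stress keratins (50.4 to 117 in the other 3 libraries) and 229 CPM of epidermal suprabasal keratins (2.53 to 37.9). In 9263, replicate 3 held 98.7 CPM of epidermal suprabasal keratins (5.73 to 33.6 in the other 6) and 246 CPM of hair and nail keratins (2.28 to 81.2). Replicate 1 of 2336 held 42.5 CPM of epidermal suprabasal keratins (7.66 to 17.5 in the other 4), and replicate 4 of 2336 held 55.5 CPM of inner root sheath and companion layer keratins (14.2 to 19.7), of which Krt71 made up 52.9 CPM. In 4T1, replicate 2 held 90.1 CPM of basal keratins (29.0 to 44.3), of which Krt14 was 88.4 CPM (25.4 to 42.8), and replicate 4 held 2.62 CPM of Krt5 (0 to 0.360). Krt8 in 2153 stood at 1717 CPM in replicate 2 (1060 to 1317 in the other 6).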

How the results depend on the processing

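Of 79 pairs of a named keratin and a model, 50 kept their direction and their side of the threshold under all 37 settings, 28 of which left out a single library. Those were the libraries of 2224, 2336, 4T1, E0771, KPB1-A, MMTV-PYMT and T12, and replicate 12 of 2208. No library of 2153, 2225, 2250, 9263 or MMTV-NEU was left out singly. The single-library ranges of these models therefore do not cover their own libraries. With single libraries left out, the log2 difference in E0771 ranged from -5.04 to 7.70 for Krt77, from -3.74 to 7.37 for Krt33a and from -0.77 to 7.39 for Krt33b, each lowest without E0771 replicate 2, and that of Krt33a in MMTV-PYMT from -0.040 (without replicate 1) to 10.38. Without the melanocyte-positive libraries the first 3 were -4.24, -3.26 and -0.20. With T12 and E0771 out of the reference, Krt18 and Krt7 in MMTV-NEU turned to -0.17 and -0.54, and Krt14 in 2336 to -0.41. Krt19 in MMTV-NEU was -1.32 with limma. The calls of lower Krt5 in 2153, 2208, 2250, 4T1 and MMTV-NEU were lost without E0771 replicate 2, which left E0771 with no Krt5 count, while the differences stayed between -5.36 and -1.76. DESeq2 called more keratins: 32 in 2153 (13 higher and 19 lower), 28 in 2208 (15 and 13), 35 in 2225 (28 and 7), 34 in 2250 (8 and 26), 32 in 2336 (17 and 15), 31 in 4T1 (9 and 22), 36 in MMTV-NEU (3 and 33) and 35 in T12 (1 and 34). Limma called 26 in 4T1 (6 and 20), 17 in E0771 (1 and 16) and 11 in MMTV-PYMT (9 and 2). Without the melanocyte-positive libraries there were 18 calls in 2224, 15 in E0771 and 10 in T12, and with replicates 2 and 4 of 2224 left out 12 calls in 2224. Leaving out single libraries gave 16 to 23 calls in 2153, 14 to 17 in 2208, 40 to 45 in 2224, 22 to 27 in 2225, 14 to 20 in 2250, 19 to 21 in 2336, 12 to 17 in 4T1, 43 to 45 in 9263, 15 to 32 in E0771 (15 without replicate 2), 9 to 18 in KPB1-A, 13 to 17 in MMTV-NEU, 15 to 45 in MMTV-PYMT (15 without replicate 1) and 11 to 20 in T12 (11 without E0771 replicate 2), and 48 to 49 keratins differed among models. The lost Krt5 calls go with a limit of the test, which had little power to call a gene lower against a compared model at 0 throughout. For the other changes the cause was not tested, and fitted values of genes at 0 throughout a model depend on the prior count. No paired analysis was possible because the labels give no replicate numbers.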

Other observations

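Linker proteins and other intermediate filaments also varied in the models with epithelial markers. Of 11 tested linker genes, 10 were called higher and 1 lower in MMTV-PYMT (edgeR; 31% and 20.5% of all genes were), against 8 and 1 without its replicate 1, and 8 were called higher and 3 lower in 9263 (32.5% and 21.9%). Dst, the dystonin gene, whose epithelial form anchors keratin filaments at hemidesmosomes, averaged 936 ± 227 CPM in MMTV-NEU (SD, n = 8), where Krt5 and Krt14 averaged 2.49 and 1.63 CPM, and 33.8 ± 21.5 CPM in 9263 (SD, n = 7), where they averaged 701 and 378 CPM. Pkp2, which encodes a desmosomal plakophilin, had its highest mean in T12 (50.6 ± 2.98 CPM, n = 3), beside 0.333 CPM of Dsp. Nes, the nestin filament gene, had its highest mean in MMTV-NEU (906 ± 396 CPM, n = 8), and the next was 272 ± 26.6 CPM in E0771 (n = 3). Des, the desmin filament gene of muscle, averaged 229 ± 55.1 CPM in 2225 (n = 10), where skeletal muscle markers summed to 30.0 ± 34.4 CPM, and 188 ± 128 CPM in E0771, where they summed to 1550 ± 1120 CPM.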
